A study of Homo sapiens with 8 samples.

Results

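F2RL2, NECAB2 and NMRAL2P were 3 of the 60291 genes counted in A549 cells, and they were selected on their measured values, for the large fall of their counts after transfection with siRNA against NFE2L2. A549 is a line of epithelial cells established from a human lung adenocarcinoma. In each transfection 250000 cells received 5 nmol of an siRNA, a double-stranded RNA by which the cell destroys mRNAs of matching sequence, and RNA was harvested after 48 h. The groups were NFE2L2 siRNA (3 libraries, each from a different duplex), control siRNA (4 libraries, 2 from each of 2 negative control duplexes) and mock (1 library, given the Lipofectamine reagent without siRNA). All groups shared the same cell line and carried no other treatment named in the labels. The control libraries therefore represented 2 duplexes, and a difference between groups included any effect of a duplex apart from its target. Total RNA was sequenced strand-specifically, and 35525141 to 41645410 reads per library fell on genes. In 17811 genes with enough reads for a test, 491 (2.76%) differed between the NFE2L2 siRNA and the control siRNA libraries, 243 (1.36%) being reduced and 248 (1.39%) increased (edgeR, adjusted p under 0.01). The epithelial markers EPCAM, KRT8, KRT18, KRT19 and CDH1 were present in every library, whereas PTPRC, CD3E, VWF and COL1A2 had at most 5 reads. All 5 epithelial markers had positive log2 fold changes with NFE2L2 siRNA, from 0.14 to 0.88, and none passed the test. COL1A1, listed here as a fibroblast marker, had 142 to 569 reads and rose with NFE2L2 siRNA, and CD14, listed as a leukocyte marker, had 156 to 394 reads. Of the 8 listed markers of other cell types, 7 were found in the annotation, PECAM1 being absent. Of these, 3 had enough reads for the test, COL1A1, CD14 and PDGFRB, with log2 fold changes from 0.53 to 1.5. COL1A1 alone passed the test (1.5 on the log2 scale, adjusted p = 0.000493). Their part in the results was not tested.

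NFE2L2 encodes NRF2, a transcription factor that is held at a low level by KEAP1 in unstressed cells and that switches on genes for glutathione synthesis, detoxification and NADPH supply by binding antioxidant response elements in DNA. A549 cells carry a mutated KEAP1 and have constantly active NRF2. F2RL2 encodes protease-activated receptor 3 (PAR3), a relative of the thrombin receptor encoded by F2R. These receptors are switched on when a protease such as thrombin clips their extracellular end, and PAR3 is known as a helper that presents thrombin to other receptors of the family. NECAB2 encodes a cytoplasmic protein with EF-hands, the loops by which many proteins bind calcium, and is best known from neurons. NMRAL2P is a transcribed pseudogene related to NMRAL1, whose protein binds NADPH and responds to the redox state of the cell.

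Since NRF2 acts through DNA sites, the promoter sequence of F2RL2 is shown with those of 3 genes measured beside it: F2RL1, a further receptor of the family, NECAB3, a relative of NECAB2, and OSGIN1, a known NRF2 target that lies next to NECAB2. Each line gives the 250 bases before the annotated start (RefSeq, GRCh38.p14), read 5′ to 3′ on the strand of the gene, with the matched letters in capitals. The windows were chr5:76623404-76623653 (minus strand) for F2RL2, chr5:76818780-76819029 (plus) for F2RL1, chr20:33674429-33674678 (minus) for NECAB3 and chr16:83952990-83953239 (plus) for OSGIN1.
F2RL2: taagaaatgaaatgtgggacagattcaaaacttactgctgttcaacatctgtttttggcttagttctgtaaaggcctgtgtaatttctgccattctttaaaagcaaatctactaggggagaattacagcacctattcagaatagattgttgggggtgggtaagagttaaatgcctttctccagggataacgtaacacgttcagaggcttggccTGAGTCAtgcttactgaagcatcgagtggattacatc
F2RL1: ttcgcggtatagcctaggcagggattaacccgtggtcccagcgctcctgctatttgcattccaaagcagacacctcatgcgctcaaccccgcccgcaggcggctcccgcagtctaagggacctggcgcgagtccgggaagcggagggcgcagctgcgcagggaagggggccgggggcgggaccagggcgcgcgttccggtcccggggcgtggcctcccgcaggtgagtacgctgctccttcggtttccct
NECAB3: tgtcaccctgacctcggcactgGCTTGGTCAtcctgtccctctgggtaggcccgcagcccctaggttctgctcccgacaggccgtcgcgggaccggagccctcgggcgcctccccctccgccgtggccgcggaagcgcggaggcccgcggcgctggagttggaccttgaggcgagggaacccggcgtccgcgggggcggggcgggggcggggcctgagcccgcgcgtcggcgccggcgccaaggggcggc
OSGIN1: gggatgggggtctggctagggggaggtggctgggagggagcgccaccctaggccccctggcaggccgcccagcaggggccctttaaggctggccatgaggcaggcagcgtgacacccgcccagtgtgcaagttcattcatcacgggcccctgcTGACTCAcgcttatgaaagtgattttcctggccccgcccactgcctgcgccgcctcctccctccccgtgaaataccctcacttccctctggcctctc

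Both strands were searched for TGACNNNGC, the core letters of the antioxidant response element, and for TGACTCAGC, one of its forms. In the 35116 promoter windows of the table, 10.9% held the former and 0.456% the latter. The F2RL2 window held neither. It held TGACTCA, the letters that open TGACTCAGC and that are also known as the site of AP-1 factors, on the strand opposite to the gene from 37 to 31 bases before the start, where it reads TGAGTCA. OSGIN1 held TGACTCA on its own strand from 97 to 91 bases before the start. This shorter motif was chosen after the F2RL2 window had been seen, and 4.20% of all windows held it. NECAB3 held TGACNNNGC on the opposite strand from 228 to 220 bases before the start, and neither F2RL1, F2RL3, either window of NMRAL1 nor DGKG, a reduced neighbour of NMRAL2P described further on, held any of the 3 motifs. The matches describe letters and were not measured as sites of binding. NECAB2, NMRAL2P, F2R and NECAB1 had no promoter in the table used here.

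The assignment of reads to NMRAL2P depends on how far its sequence has drifted from NMRAL1, so the most similar stretch of the annotated transcripts is shown next. Bases 265 to 471 of NMRAL2P and bases 380 to 586 of NMRAL1, all of them coding sequence in NMRAL1, aligned over 207 bases without a gap. Letters that differ between the genes are in capitals.
NMRAL2P: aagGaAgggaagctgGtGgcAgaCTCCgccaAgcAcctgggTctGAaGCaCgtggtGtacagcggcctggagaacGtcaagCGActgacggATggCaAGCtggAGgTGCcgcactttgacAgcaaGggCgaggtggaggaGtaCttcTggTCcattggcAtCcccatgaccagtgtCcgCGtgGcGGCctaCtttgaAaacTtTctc
NMRAL1: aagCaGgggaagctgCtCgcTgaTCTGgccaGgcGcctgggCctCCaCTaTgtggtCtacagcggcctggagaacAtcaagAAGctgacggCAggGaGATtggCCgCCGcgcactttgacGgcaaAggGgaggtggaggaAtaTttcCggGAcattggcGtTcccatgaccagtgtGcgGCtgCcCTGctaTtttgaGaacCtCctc

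The stretches differed at 54 positions, which left 73.9% of the letters identical, and the longest run of identical letters was 18 bases. No stretch of 25 bases occurred in the compared transcripts of both genes. The same held for F2RL2 against F2R and F2RL1 and for NECAB2 against NECAB1 and NECAB3. The closest match of NECAB2 was 67.4% identical over 371 bases of NECAB3 and 66.7% over 396 bases of NECAB1, and F2RL2 matched F2RL1 at 70.3% over 128 bases. In the compared transcripts of the annotation used here these genes thus held no such stretch in common with a relative. The exons in the release used for counting were not available, so the counts themselves were not checked in this way.

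NFE2L2 itself was lower in each NFE2L2 siRNA library than in any control library. It had 1178, 2044 and 1262 reads with NFE2L2 duplexes 1, 2 and 3, which left 29.1%, 46.6% and 26.3% of the mean normalized count of the controls. The mock library had 4408 reads, or 98.9% of that mean. The library of duplex 2 held the most NFE2L2 reads of the 3, with 1 library per duplex.

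F2RL2 (ENSG00000164220.6) lies on chromosome 5 from 75911307 to 75919238 on the minus strand in GRCh37, within the span of IQGAP2 on the opposite strand. It had 27, 21 and 27 reads with NFE2L2 duplexes 1, 2 and 3. The control siRNA libraries held 400 and 444 reads with duplex 1 and 482 and 490 reads with duplex 2. The groups were far apart, and the control libraries lay close together. After normalization the level was 12.3 ± 1.2 CPM (counts scaled to a common library size; SD, n = 4) in the controls and 0.638 ± 0.106 CPM (SD, n = 3) with NFE2L2 siRNA, or 5.17% of the control level. The log2 fold change was −4.26 with a standard error of 0.18. Because F2RL2, NECAB2 and NMRAL2P were picked for this difference, their fold changes are given as a description without a test. In RNA from whole cultures, fewer cells that express a gene and less RNA per cell cannot be told apart.

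NMRAL2P (ENSG00000171658.4) lies on chromosome 3 from 185677828 to 185697626 on the plus strand. It had 32, 32 and 35 reads with the NFE2L2 duplexes, against 473 and 546 reads with control duplex 1 and 749 and 648 reads with control duplex 2. The NFE2L2 siRNA libraries were nearly alike, and the controls were spread more widely. The level was 0.840 ± 0.0391 CPM (SD, n = 3) with NFE2L2 siRNA and 16.4 ± 3.26 CPM (SD, n = 4) with control siRNA, or 5.11% of the control level. The log2 fold change was −4.28 with a standard error of 0.21.

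NECAB2 (ENSG00000103154.5) lies on chromosome 16 from 84001849 to 84036381 on the plus strand. It had 5, 13 and 6 reads with the NFE2L2 duplexes. The controls held 173 and 229 reads with duplex 1 and 227 and 232 reads with duplex 2, so that the groups were again far apart. The level was 0.203 ± 0.111 CPM (SD, n = 3) with NFE2L2 siRNA and 5.85 ± 0.799 CPM (SD, n = 4) with control siRNA, or 3.47% of the control level. The log2 fold change was −4.82 with a standard error of 0.29, the widest of the 3 genes and the one based on the fewest reads. Without NFE2L2 duplex 2, which gave 13 of the 24 reads, it was −5.36.

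Among the 243 reduced genes ordered from the largest fall, NECAB2 was at place 3, NMRAL2P at place 5 and F2RL2 at place 6. GCKR, with 0, 2 and 1 reads in the NFE2L2 siRNA libraries, stood at place 2, and FBXW10 at place 7 with a log2 fold change of −4.23. The 27 genes of a reference list of NRF2 targets, which included OSGIN1, had log2 fold changes between −3.62 and −0.62, so each of the 3 genes fell further on this scale than every gene of that list. The list and the 3 genes were compared in the same libraries. The 3 genes were picked for a large fall in these libraries, so their places and their position below the list follow from that choice.

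Across the NFE2L2 duplexes the remaining levels of the 3 genes did not follow the remaining NFE2L2 mRNA in one common order. F2RL2 stood at 6.05%, 4.34% and 5.11% of the control mean with duplexes 1, 2 and 3, and was thus lowest in the library with the most NFE2L2. The 95% counting interval with duplex 2 (2.69 to 6.64%) overlapped those with duplex 1 (3.99 to 8.80%) and duplex 3 (3.37 to 7.43%). NMRAL2P stood at 5.39%, 4.97% and 4.98%. NECAB2 stood at 2.36%, 5.67% and 2.39%, highest with duplex 2, with intervals of 0.767 to 5.51%, 3.02 to 9.69% and 0.879 to 5.21%. These intervals overlapped as well, and with 1 library per duplex no difference between duplexes was tested. Intervals are exact Poisson intervals and cover counting error only.

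The mock library separated the 3 genes. NMRAL2P had 629 reads in mock, or 96.2% of the control mean (95% counting interval 88.8 to 104%), within the range of the control libraries. F2RL2 had 364 reads, or 74.0% (66.6 to 82.0%), below the lowest control library. NECAB2 had 51 reads, or 21.9% (16.3 to 28.8%), far below the controls and still 6.29-fold above the mean with NFE2L2 siRNA. A position below every control library was common, at 22.1% of the 17811 genes tested. A mock level more than 2-fold below the control mean was not: of 12054 genes with a mean of at least 100 reads in the controls, 34 (0.282%) showed it. Among the 211 of these genes that were reduced with NFE2L2 siRNA, 8 did. NECAB2 was at place 2 of these 12054, and PYGM, the glycogen phosphorylase of muscle, alone lay lower. The read minimum of 100 was chosen after the mock count of NECAB2 had been seen. In the list of 27 NRF2 targets the mock level ran from 74.6% to 109% of the control mean with a median of 94.5%. The median over all genes tested was 100.2%. Of the 27, 11 lay below every control library in mock and 1 above, beside 3941 and 4009 of the 17811 genes tested. With 1 mock library the difference has no replicate check, and an effect of siRNA as such cannot be told apart from an effect of this transfection.

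**Figure D1:**
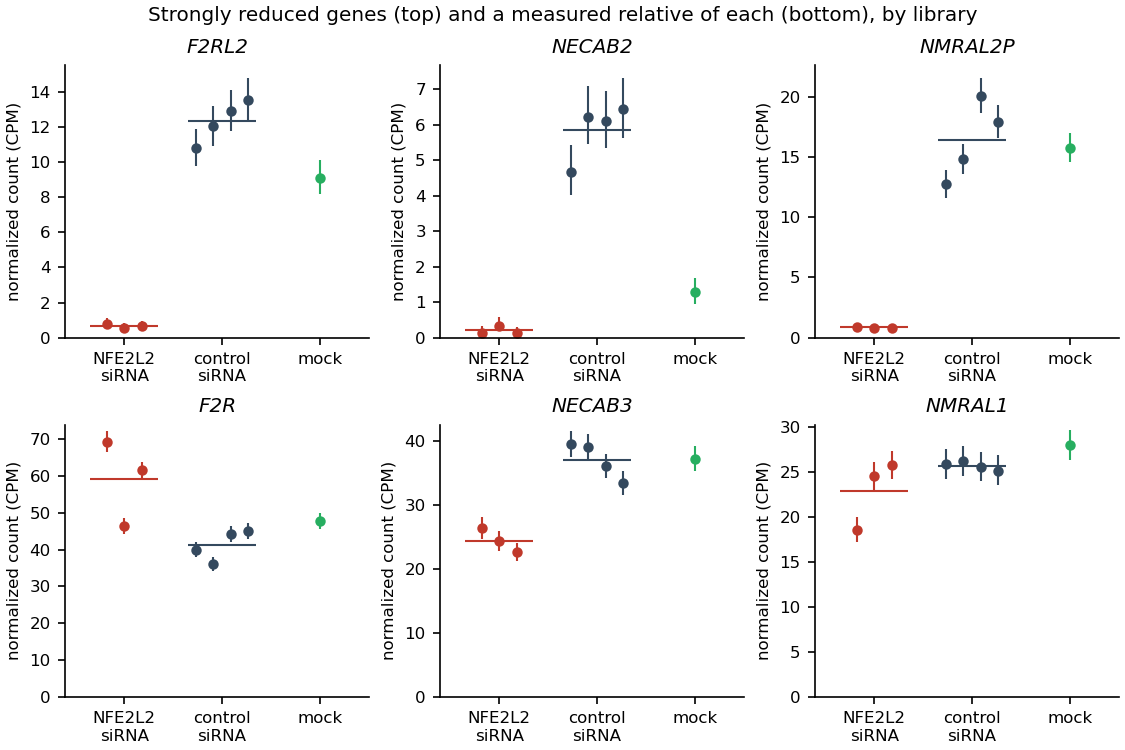
Normalized counts (CPM, linear axes from 0) of F2RL2, NECAB2 and NMRAL2P (top) and of F2R, NECAB3 and NMRAL1 (bottom) in each library, as points with 95% counting intervals and a line at the mean of each group with more than 1 library. The NFE2L2 siRNA libraries of the top genes lie at 0.138 to 0.885 CPM, and NECAB2 in mock (1.28 CPM) lies between the groups.

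The control duplexes offered a comparison that had played no part in the choice of the genes. In the control libraries alone, duplex 2 against duplex 1, 566 of 17261 genes differed (3.28%). F2RL2 differed by 0.24 ± 0.09 (SE) on the log2 scale with an adjusted p of 0.148, and NECAB2 by 0.22 ± 0.14 (SE) with an adjusted p of 0.368. NMRAL2P was higher with duplex 2 by 0.49 ± 0.10 (SE), with both libraries of duplex 2 above both of duplex 1. Its adjusted p of 0.0134 missed the threshold in edgeR, whereas DESeq2 gave 0.00763 and edgeR with genes of at least 1 read gave 0.128. Against control duplex 1 alone the log2 fold change of NMRAL2P with NFE2L2 siRNA was −4.03, and against duplex 2 alone it was −4.50.

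Among the relatives of F2RL2, F2R and F2RL1 were higher, not lower, with NFE2L2 siRNA, although neither passed the test. F2R had 2507, 1821 and 2633 reads with the NFE2L2 duplexes, against 1476 and 1330 reads with control duplex 1 and 1643 and 1622 reads with control duplex 2. The level was 59.1 ± 11.6 CPM (SD, n = 3) against 41.3 ± 4.09 CPM (SD, n = 4), with a log2 fold change of 0.53 ± 0.15 (SE) and an adjusted p of 0.0545. All NFE2L2 siRNA libraries lay above all controls after normalization, as they did for 11.5% of the genes tested. Without the library of NFE2L2 duplex 2 the log2 fold change was 0.67 with an adjusted p of 0.00738, which passed the threshold. F2RL1, which encodes PAR2, a receptor cut by trypsin-like proteases, had 7574, 6453 and 5942 reads after NFE2L2 siRNA. The controls had between 4567 and 4845 reads, and the log2 fold change was 0.44 ± 0.13 (SE, adjusted p = 0.0683). Its libraries did not overlap between the groups either. F2RL3, which encodes PAR4, had no read in the NFE2L2 siRNA and control siRNA libraries and 1 in mock. Taken as a limit of 3 reads, a count of 0 allows a level of up to 0.0720 to 0.0844 CPM in these 7 libraries. This limit was scaled by library size alone, without the normalization factors of the other CPM values.

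Levels of the receptors were compared per length of the gene, with exon lengths from the annotation used here. The exons in the release used for counting were not available, so these levels were not checked against them. In the controls F2RL1 stood at 43.4 ± 1.24 CPM per kilobase of exon (SD, n = 4), F2R at 10.4 ± 1.03 and F2RL2 at 3.62 ± 0.352. These levels were separated by more than the spread between libraries. F2RL2 made up 5.48 to 6.70% of the summed level of the family in the control libraries and 4.43% in mock, against 0.231 to 0.294% with NFE2L2 siRNA. The ratio of F2RL2 to F2R fell from 0.35 ± 0.0303 (SD, n = 4) in controls to 0.0126 ± 0.000749 (SD, n = 3) with NFE2L2 siRNA, and it follows from the selection of F2RL2.

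Genes that act with the receptors were taken from 4 lists: proteases that cut them, cofactors and inhibitors of thrombin, G proteins and arrestins, and downstream effectors. Of 45 listed genes 39 were tested. None of these passed the threshold in edgeR, in DESeq2 or in limma-voom. An unadjusted p under 0.05 was found for 10 of them, or 25.6%, close to the 25% of all genes tested. Their median log2 fold change was 0.09, beside 0.01 over all genes tested. PLAU, the urokinase plasminogen activator, gave 8343, 11299 and 12799 reads after NFE2L2 siRNA, against 6211 to 7901 in the controls. Its log2 fold change was 0.48 ± 0.12 (SE, adjusted p = 0.0392). PLCB3, a phospholipase that relays the signal of Gq proteins, had a log2 fold change of 0.47 ± 0.12 (SE, adjusted p = 0.0445), and without NFE2L2 duplex 2 it alone of the 39 passed the threshold. PRSS3, which encodes mesotrypsin, had a log2 fold change of −1.12 ± 0.42 (SE, adjusted p = 0.128). It was lower with control duplex 2 than with duplex 1, by 1.38 on the log2 scale (adjusted p = 0.00302). THBD, which encodes thrombomodulin, the receptor that turns thrombin towards protein C, likewise differed between the control duplexes, by 0.51 (adjusted p = 0.00701).

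Of the relatives of NECAB2, NECAB1 was at the limit of detection. The NFE2L2 duplexes left 1, 0 and 4 reads, the controls held 1, 1, 0 and 0, and mock had none, too few for the test. NECAB3, which is expressed well beyond neurons, was reduced. It had 955, 954 and 968 reads with the NFE2L2 duplexes, against 1464 and 1442 reads with control duplex 1 and 1344 and 1209 reads with control duplex 2. All NFE2L2 siRNA libraries lay below all controls, as they did for 11.8% of the genes tested. The level fell from 37.1 ± 2.84 CPM (SD, n = 4) to 24.5 ± 1.90 CPM (SD, n = 3), a log2 fold change of −0.59 ± 0.10 (SE, adjusted p = 0.00917). This call lay at the threshold: it was lost when NFE2L2 duplex 2 or 3 or any 1 of the 4 control libraries was left out, with adjusted p from 0.0111 to 0.0442. Against control duplex 1 or duplex 2 alone the adjusted p was 0.05 and 0.137. In mock NECAB3 had 1486 reads, or 101% of the control mean, unlike NECAB2. Per kilobase of exon the controls had 8.54 ± 0.655 CPM of NECAB3 and 2.01 ± 0.275 CPM of NECAB2 (SD, n = 4). These values depended on the gene model, and over the longest transcript they were 17.3 and 2.84.

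Other calcium-binding proteins with EF-hands were taken from a list of 42 genes. Of 34 tested in edgeR, NCALD was increased and none was reduced, 1 of 34 being near the 2.76% called over all genes. An unadjusted p under 0.05 was found for 14 of them, or 41.2%, a larger share than the 25% of all genes. The median log2 fold change was 0.05, beside 0.01 over all genes. NCALD, which encodes neurocalcin delta, a calcium sensor of the neuronal family, gave 1732, 1932 and 1792 reads after NFE2L2 siRNA, against 846 to 958 in the controls. Its log2 fold change was 0.95 ± 0.10 (SE, adjusted p = 0.000495). S100P, a secreted S100 protein, had 520, 245 and 676 reads against 1119 to 1519 in the controls. Its log2 fold change was −1.51 ± 0.27 (SE) with an adjusted p of 0.0102, just outside the threshold, and it passed in DESeq2 and limma-voom.

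**Figure D2:**
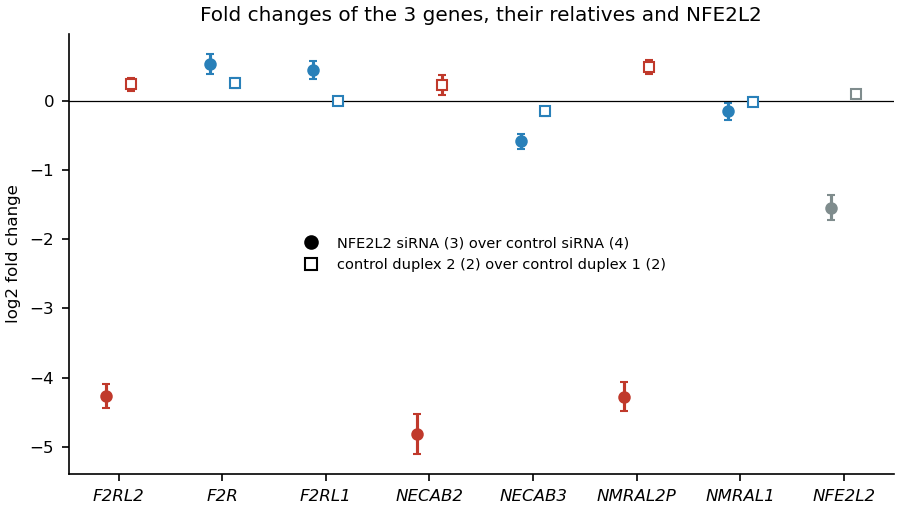
Log2 fold changes (vertical axis) with standard errors for F2RL2, NECAB2 and NMRAL2P (red), their relatives (blue) and NFE2L2 (grey). Filled circles compare 3 NFE2L2 siRNA with 4 control siRNA libraries, and open squares compare 2 libraries of control duplex 2 with 2 of control duplex 1. The red circles lie between −4.82 and −4.26 and the blue circles between −0.59 and 0.53.

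NMRAL1, the relative of NMRAL2P, did not pass the test. It had 672, 962 and 1104 reads with the NFE2L2 duplexes, 959, 966, 953 and 910 reads in the controls and 1116 reads in mock. After normalization the levels with duplexes 1 and 2, 18.6 and 24.6 CPM, were below the controls (25.2 to 26.2 CPM), and that with duplex 3, 25.8 CPM, was among them. The mean was 23.0 ± 3.85 CPM (SD, n = 3) against 25.7 ± 0.438 CPM (SD, n = 4), with a log2 fold change of −0.15 ± 0.12 (SE, adjusted p = 0.477). The controls held 0.493 to 0.786 reads of NMRAL2P per read of NMRAL1, mock 0.564 and the NFE2L2 siRNA libraries 0.0317 to 0.0476. The low values with NFE2L2 siRNA follow from the selection of NMRAL2P. A level per length was not compared for this pair, since the annotation used here gives NMRAL2P 891 bases of exon and the exons in the release used for counting were not available.

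NMRAL1 belongs to the atypical short-chain dehydrogenases, enzyme-like proteins that bind NAD(H) or NADP(H). Of 14 tested genes of the atypical and extended classes, 2 were reduced and none was increased, beside 1.36% and 1.39% of all genes, with a median log2 fold change of −0.00. BLVRB, which encodes biliverdin reductase B, gave 2739, 3896 and 3881 reads after NFE2L2 siRNA, against 5959 to 7626 in the controls. Its log2 fold change was −1.05 ± 0.12 (SE, adjusted p = 0.00108). HTATIP2, which encodes an oxidoreductase also known as TIP30, had 2483, 4171 and 4128 reads against 6322 to 6691, with a log2 fold change of −0.97 ± 0.14 (SE, adjusted p = 0.00297). That call was lost when NFE2L2 duplex 3 or control library 2, 3 or 4 was left out (adjusted p 0.0111 to 0.0148). None of 4 proteins known to bind NMRAL1 passed the threshold in edgeR, DESeq2 or limma-voom. An unadjusted p under 0.05 was found for 2 of them (50%), COMMD7 and USP7, beside 25% of all genes.

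The genes around F2RL2, NECAB2 and NMRAL2P were then examined. Within 250 kb, 37 other genes were annotated and 15 had enough reads for the test. Of these 15, 2 were reduced and none was increased, beside 1.36% and 1.39% of all genes. OSGIN1, which encodes an oxidative stress induced growth inhibitor, ends 1911 bases before NECAB2 on the same strand of chromosome 16 (83964916 to 83999937). The NFE2L2 duplexes left 154, 214 and 135 reads, and the controls held 1843, 1911, 1543 and 1625. The log2 fold change was −3.45 ± 0.19 (SE, adjusted p = 8.83e-06). In mock OSGIN1 had 1544 reads, or 82.4% of the control mean, whereas NECAB2 stood at 21.9%. The controls held 9.39 to 14.7 NECAB2 reads per 100 OSGIN1 reads, mock 3.30 and the NFE2L2 siRNA libraries 3.25 to 6.07. The reads of the neighbours did not keep a constant proportion between libraries. NECAB2 was picked for its fall with NFE2L2 siRNA, which bears on the proportion in those libraries, and the mock proportion rests on 1 library.

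The other reduced neighbour was DGKG, which encodes a diacylglycerol kinase and lies 125830 bases beyond the end of NMRAL2P on the opposite strand. The NFE2L2 duplexes left 240, 343 and 224 reads, against 741 to 777 in the controls. The log2 fold change was −1.58 ± 0.16 (SE, adjusted p = 0.000493). ETV5 and TRA2B, which lie nearer to NMRAL2P, and IGF2BP2, which lies 134997 bases away on its other side, did not pass the threshold, with log2 fold changes of −0.26, −0.21 and 0.40. On chromosome 16, MLYCD, HSBP1, HSDL1, TAF1C, DNAAF1, MBTPS1-DT and MBTPS1 had log2 fold changes from −0.36 to 0.62 and adjusted p from 0.126 to 0.947. MBTPS1, a protease of the Golgi, differed between the control duplexes by 0.89 on the log2 scale (adjusted p = 3.92e-05). The tested neighbours of F2RL2 included its relatives F2R and F2RL1, described above, which lie 92712 and 195519 bases away. IQGAP2, a scaffold protein whose gene spans F2RL2 on the other strand, had a log2 fold change of 0.37 ± 0.25 (SE, adjusted p = 0.388). The counting kept the strands apart, and the fall of F2RL2 was not seen in IQGAP2.

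**Figure D3:**
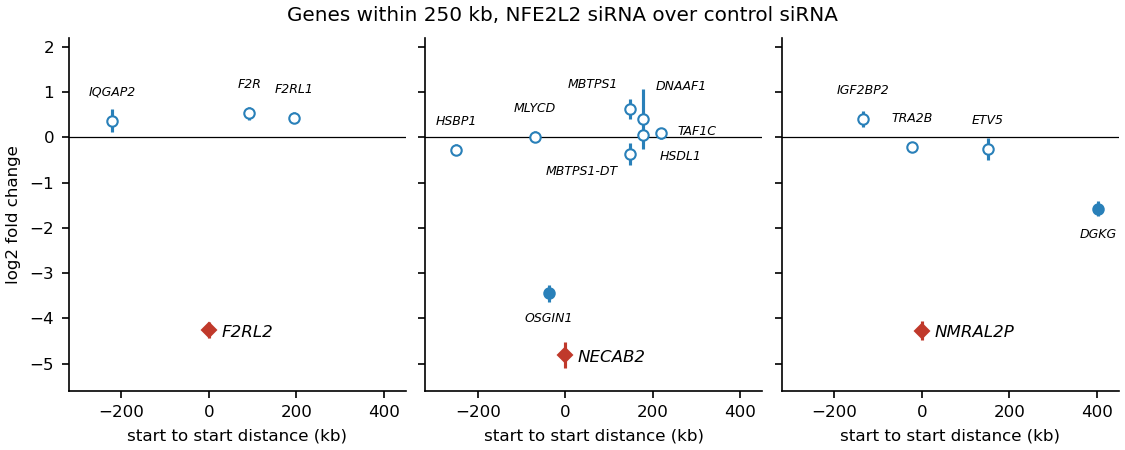
Log2 fold changes with standard errors, NFE2L2 siRNA (3) over control siRNA (4), of tested genes within 250 kb of F2RL2, NECAB2 and NMRAL2P. The horizontal axis is the distance in kb between annotated starts, positive towards higher coordinates, and filled circles passed an adjusted p of 0.01. OSGIN1 and DGKG are the 2 filled circles of 15, at −3.45 and −1.58.

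Finally, genes were ranked by likeness of profile, measured as the root mean square difference of log2 CPM over the 8 libraries after subtraction of the control mean. F2RL2 and NMRAL2P were each the closest gene to the other among 17811, with a difference of 0.20. The next for both was CYP4F11, a fatty acid hydroxylase of the cytochrome P450 family, at 0.24 from F2RL2 and 0.26 from NMRAL2P. CYP4F11 had a log2 fold change of −4.18, and its mock level was 100.2% of the control mean. A processed pseudogene, ENSG00000267056, was the third for both, at 0.42 and 0.45. It lies close to CYP4F11 on the same strand of chromosome 19 (16021392 to 16022634, against 16023177 to 16045677). Whether the counts of this pair are independent was not tested. NECAB2 had no equally close neighbour: FBXW10, an F-box protein gene, stood at 0.57, GCKR, the gene of the glucokinase regulator, at 0.67 and FAM180B at 0.72. All were below their control mean in mock, FBXW10 at 54.5%, GCKR at 64.5% and FAM180B at 25.5% with 2 reads. Mock was among the 8 libraries of the profile, so low mock levels in genes close to NECAB2 follow in part from the ranking. The control libraries held only 28 to 34 reads of GCKR and 5 to 10 of FAM180B, and FAM180B had no read with NFE2L2 siRNA. Since the profile contains the contrast by which the genes were chosen, the likeness is a description, and the 8 libraries are the same for all genes.

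**Figure D4:**
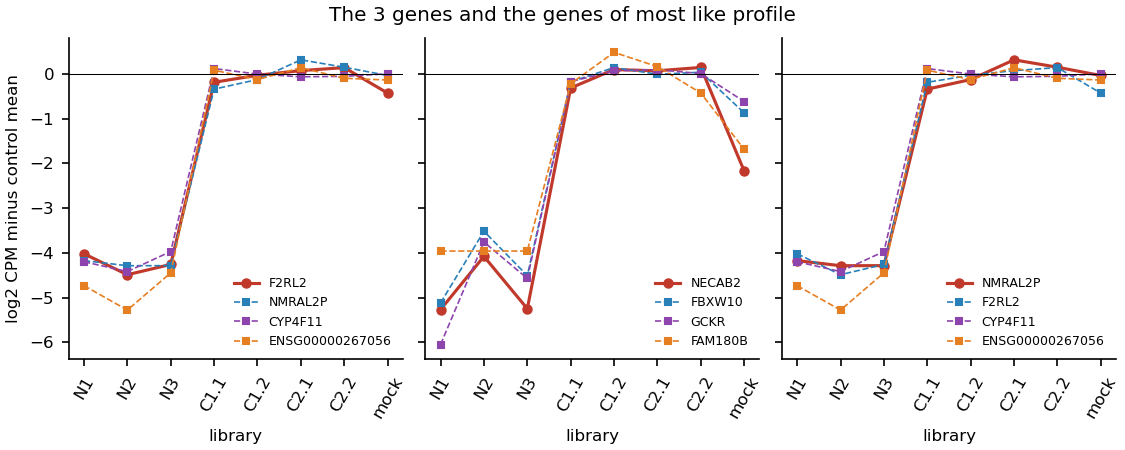
Log2 CPM minus the control mean (vertical axis) in the 8 libraries for F2RL2, NECAB2 and NMRAL2P (red) and for the 3 genes of most like profile (dashed). N1 to N3 are the NFE2L2 duplexes, C1.1 to C2.2 the repeats of control duplexes 1 and 2, and lines only join the values of a gene. In mock NECAB2 lies at −2.17, F2RL2 at −0.43 and NMRAL2P at −0.03.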

How the data were processed

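Strand-specific total RNA-seq (TruSeq Stranded with Ribo-Zero, NextSeq 500) was available for 8 libraries. The authors aligned reads to hg19 with HISAT 0.1.6 and deposited counts: reads per gene of GENCODE v19 from HTSeq 0.6.0 (reverse-strand setting, reads wholly inside exons), without normalization. Reads that HTSeq assigned to no gene were left out, 60.3 to 65.6% of the entries being on genes. Positions and exon lengths came from GENCODE v44 on GRCh37, in which 55538 of 60291 identifiers were found.

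F2RL2, NECAB2 and NMRAL2P and the gene lists were chosen with earlier results of these data known. Genes that reached 10 reads in 1 or more of 7 libraries were compared, 3 NFE2L2 siRNA against 4 control siRNA, with edgeR 4.0.16 (R 4.3.3, TMM, quasi-likelihood test, two-sided, Benjamini-Hochberg over all genes, threshold 0.01), and the 2 control duplexes likewise. The mock library stayed out of the tests. The standard error (SE) was obtained as |log2 fold change| divided by √F. CPM used TMM factors of all 8 libraries, with a prior count of 0.5 on the log2 scale. Transcripts, chosen by gene symbol with those of a further gene identifier left out, were aligned with blastn 2.17.0. Named genes were the 3 genes, their families, NFE2L2, called and a few other genes of each list, all tested genes within 250 kb, and the 3 most like profiles, and PYGM was added after its value was seen. Alternatives were DESeq2 1.42.0, limma-voom (limma 3.58.1), other size factors, filters and control sets, a threshold of 0.05, and leaving out each library.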

Additional observations from a re-analysis of the deposited data

Results flagged for a closer look

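In 19 named genes the 4 control siRNA libraries were searched for a library far from the others, where chance alone would mark about 1 in 20. HTATIP2 in control siRNA replicate 3, at 170 CPM against 181 to 182 CPM in the others, had a gap of 0.919 of the range of the group. IQGAP2 in control siRNA replicate 1, at 73.0 CPM against 36.4 to 41.4 CPM, had a gap of 0.864. NECAB2 in control siRNA replicate 1, at 4.67 CPM against 6.10 to 6.43 CPM, reached 0.814, just under the limit for 4 samples. Without that library the log2 fold change of NECAB2 was −4.91.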

How the results depend on the processing

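In 402 values recomputed under the alternatives no direction was reversed, and 86 moved or crossed a threshold. F2RL2 stayed between −4.39 and −4.15 on the log2 scale, NECAB2 between −5.36 and −4.57 and NMRAL2P between −4.50 and −4.03, the latter extremes from control duplexes 2 (−4.50) and 1 (−4.03) alone. With a library left out NECAB2 ran from −5.36 to −4.59 and F2R from 0.39 to 0.67. NMRAL2P between control duplexes passed in DESeq2 (0.48) and was farther from the threshold with genes of at least 1 read (adjusted p = 0.128).

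The number of genes called depended strongly on the setting. The total, the reduced and the increased genes numbered 1319, 592 and 727 with DESeq2, 1019, 445 and 574 with genes of at least 1 read, 120, 96 and 24 against control duplex 1 alone, 59, 53 and 6 against duplex 2 alone, and 1456, 631 and 825 at a threshold of 0.05. With mock added to the controls 772 were called, 451 of them increased. Leaving out a library gave 163 to 915 in all, 128 to 521 reduced and 35 to 394 increased, and the highest total came without NFE2L2 duplex 2.

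EF-hand genes called numbered 4 with DESeq2, 3 with genes of at least 1 read, 5 at 0.05, 0 against control duplex 2 alone, 2 with limma-voom, DESeq2 size factors or mock added, and 1 to 4 with a library left out. Short-chain dehydrogenases numbered 1 and 0 against control duplexes 1 and 2 alone and 1 to 2 with a library left out. Thrombin and receptor signalling genes numbered 2 at 0.05 and 0 to 1 with a library left out. Against control duplex 2 alone 16 NRF2 targets and 1 neighbour were called. DGKG, NCALD and HTATIP2 were lost against either control duplex alone, and BLVRB against duplex 2. The cause was not tested. NECAB1 could be fitted only with genes of at least 1 read (adjusted p = 0.618). No paired analysis was possible because the NFE2L2 siRNA numbers name duplexes and the control numbers name repeats of a duplex. NECAB2 with 5 to 13 reads and NECAB1 with at most 4 were limited by depth.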
